A study of Homo sapiens with 9 samples.

Results

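The genes described here are KYNU and 9 companions: the tryptophan-degrading enzymes IDO1, TDO2, AFMID and KMO, the aryl hydrocarbon receptor AHR with its partner ARNT, and the receptor's targets CYP1A1, CYP1B1 and TIPARP. All 10 were found by symbol among the 21619 genes of the count tables. They were chosen by name with earlier results of these data known, around KYNU, whose own difference between the groups is a reason for its place in the set. The contrast of these genes is therefore given as a description. Which of them passed the threshold of the fit across all genes is stated once, together with the settings where that changes, and supports nothing.

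RNA on tagged ribosomes was sequenced from 9 mammary tumours of mice, 3 weeks after MDA-MB-231 cells were injected into the fat pad. MDA-MB-231 is an established triple-negative human breast cancer line, and here it carried EGFP-L10a, a green fluorescent ribosomal protein. In 5 tumours (1, 6, 7, 10 and 15) the cancer cells had been mixed with an equal number of mesenchymal stem cells (MSC) from human bone marrow, and in 4 tumours (9, 11, 12 and 13) they had been injected without MSC. Each tumour came from its own mouse, and the tagged line was the same in both groups. The labels give the tag for the cancer cells only, and the pull-down with beads against GFP started from lysate of the whole tumour. The strain and immune state of the mice, the number of tagged clones and the number of MSC donors were not given in the sources used here.

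Kynurenine is made from tryptophan in the cytosol. IDO1 or TDO2 opens the tryptophan ring, and AFMID, a formamidase, releases kynurenine. From there the pathway divides. KYNU (kynureninase) cleaves kynurenine to anthranilic acid and hydroxykynurenine to hydroxyanthranilic acid, KMO hydroxylates kynurenine on the way to NAD, and aminotransferases turn kynurenine into kynurenic acid. Kynurenine and kynurenic acid are ligands of AHR, a transcription factor that waits in the cytosol with HSP90, enters the nucleus on binding a ligand, pairs with ARNT and turns on genes such as CYP1A1, CYP1B1 and TIPARP. In breast and other tumours the pathway is best known for IDO1, which is induced by interferon gamma and dampens T cells.

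The AHR and ARNT pair binds a DNA element whose core is GCGTG, so the stretch around the start site is shown for KYNU and for 2 textbook AHR targets, CYP1A1 and TIPARP. The sequences are from RefSeq on GRCh38.p14, from 250 bases before the gene's start to 50 after it, 5′ to 3′ on the gene's strand. Capitals mark GCGTG, or CACGC where the core lies on the opposite strand. TIPARP has 3 listed starts, and the window of the first is shown. The counts themselves were made on hg19.
KYNU, chr2:142877414-142877713, + strand: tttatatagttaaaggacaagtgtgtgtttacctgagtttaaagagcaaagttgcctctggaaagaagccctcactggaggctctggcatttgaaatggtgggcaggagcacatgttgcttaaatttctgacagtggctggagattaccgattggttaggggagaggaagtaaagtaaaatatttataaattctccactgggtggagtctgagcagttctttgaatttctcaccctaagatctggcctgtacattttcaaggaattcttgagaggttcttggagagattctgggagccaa
CYP1A1, chr15:74725479-74725778, - strand: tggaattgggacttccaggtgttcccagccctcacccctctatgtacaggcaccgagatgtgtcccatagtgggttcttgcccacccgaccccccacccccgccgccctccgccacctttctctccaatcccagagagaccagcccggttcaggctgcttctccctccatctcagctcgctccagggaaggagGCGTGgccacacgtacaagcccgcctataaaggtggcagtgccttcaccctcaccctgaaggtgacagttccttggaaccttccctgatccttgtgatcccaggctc
TIPARP, chr3:156674340-156674639, + strand: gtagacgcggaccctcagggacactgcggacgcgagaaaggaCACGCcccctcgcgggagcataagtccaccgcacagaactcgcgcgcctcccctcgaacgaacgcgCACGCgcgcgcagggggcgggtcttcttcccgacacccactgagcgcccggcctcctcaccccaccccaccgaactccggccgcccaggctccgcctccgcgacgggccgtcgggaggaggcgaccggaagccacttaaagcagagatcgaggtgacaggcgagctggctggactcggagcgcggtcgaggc
KYNU had 0 GCGTG cores in this window on either strand. CYP1A1 had 1, beginning 57 bases before the start, and TIPARP had 2, both on the opposite strand, beginning 208 and 142 bases before it. The windows of the other 2 TIPARP starts, like that of KYNU, had 0. The longer form TNGCGTG was in none of the 3. Of the 35116 promoter windows of this length in the RefSeq table, 36.5% held at least 1 GCGTG on either strand, so the core is common, and TNGCGTG was in 5.51% of them. ACGTG, the other form of the core that dimers of ARNT with the hypoxia factors bind, was in 21.4% of all windows. The CYP1A1 window held 1, apart from its GCGTG, and those of KYNU and TIPARP shown here held 0. Promoter windows matched 8 of the 10 symbols, all except IDO1 and CYP1B1. Of the symbols not shown, AFMID and AHR, which are not among the targets named here, had 1 GCGTG each. TDO2, KMO and ARNT had 0. GC content was 42.3% in the KYNU window, 61% in that of CYP1A1 and 71% in the TIPARP window shown. A match describes the letters of the window and does not show a binding site. A window without a match says nothing of sites outside it or of control by AHR.

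Libraries held 29749909 to 50639082 gene counts with MSC and 24616792 to 65275226 without MSC. Values below are CPM, counts scaled to library size with TMM factors, and a log2 fold change is with MSC minus without MSC, ± SE, from the edgeR quasi-likelihood fit across all 13458 tested genes. In that fit 563 genes were called higher and 484 lower with MSC (Benjamini-Hochberg adjusted p under 0.05), which is 4.18% and 3.60% of the tested genes, 7.78% in all. After a correction for GC content and transcript length the calls were 360 higher and 520 lower. These counts hang on single libraries. The higher calls numbered 260, 350, 285, 175 and 151 without tumours 1, 6, 10, 9 and 12 and 985 without tumour 13, and the lower calls 191, 191, 301, 138, 299 and 94 without tumours 1, 10, 15, 9, 11 and 12 and 863 without tumour 13.

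The libraries also fell into 2 sets that the labels do not name. In tumours 1 and 7 with MSC and 9, 12 and 13 without MSC, 144 to 244 genes had exactly 1 count. In tumours 6, 10 and 15 with MSC and 11 without MSC, 791 to 864 genes did. Genes detected in a library numbered 13379 to 15424 in the first set and 15603 to 16373 in the second, and depth did not separate the sets, since tumour 9 was the deepest library and tumour 12 the shallowest. The sets were drawn after the data were seen. Values within each are given below for KYNU, AFMID, TIPARP and NNMT, and in part for AHR and ARNT. Other genes also differed between the sets. As log2 ratios of means in the first and second set, SRC had 0.31 and 0.72 and JAK1 -0.47 and -0.27. SLC3A2 had 0.84 and 0.83. Of the genes listed as marks of the line, VIM, CD44, EGFR, CAV1, KRT8 and KRT18 were counted in every library, 3 of these 6 being called higher with MSC. ESR1, PGR and CDH1, listed as low or absent, had at most 9 counts, while ERBB2, at 21.4 to 36.2 CPM with MSC and 17.8 to 25.7 CPM without MSC, and GATA3, at 3.73 to 5.40 CPM with MSC and 5.21 to 9.88 CPM without MSC, were present in all 9.

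KYNU was lower in the tumours with MSC, whereas IDO1 and AFMID before it in the pathway and the AHR pair differed by less than the spread among tumours. KYNU had 4.45, 5.45, 5.78, 6.61 and 4.34 CPM in tumours 1, 6, 7, 10 and 15 with MSC, against 11.6, 8.53, 9.59 and 7.59 CPM in tumours 9, 11, 12 and 13 without MSC. Every tumour with MSC lay below every tumour without MSC. A lack of overlap in this direction was found for 4.87% of all tested genes. The means were 5.33 ± 0.949 CPM with MSC (SD, n = 5) and 9.33 ± 1.72 CPM without MSC (SD, n = 4), a ratio of 0.571 and a log2 fold change of -0.81 ± 0.18. These values rest on 152 to 328 counts per library with MSC and 232 to 763 without MSC. Of the 6 members that passed the filter on low counts, 1, KYNU, passed the threshold in the fit over all genes, and nothing is read from that count because the set was proposed with this contrast known. In bulk polysome RNA, fewer cells translating a gene, less of its RNA per cell and less of it on ribosomes cannot be told apart.

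**Figure D1:**
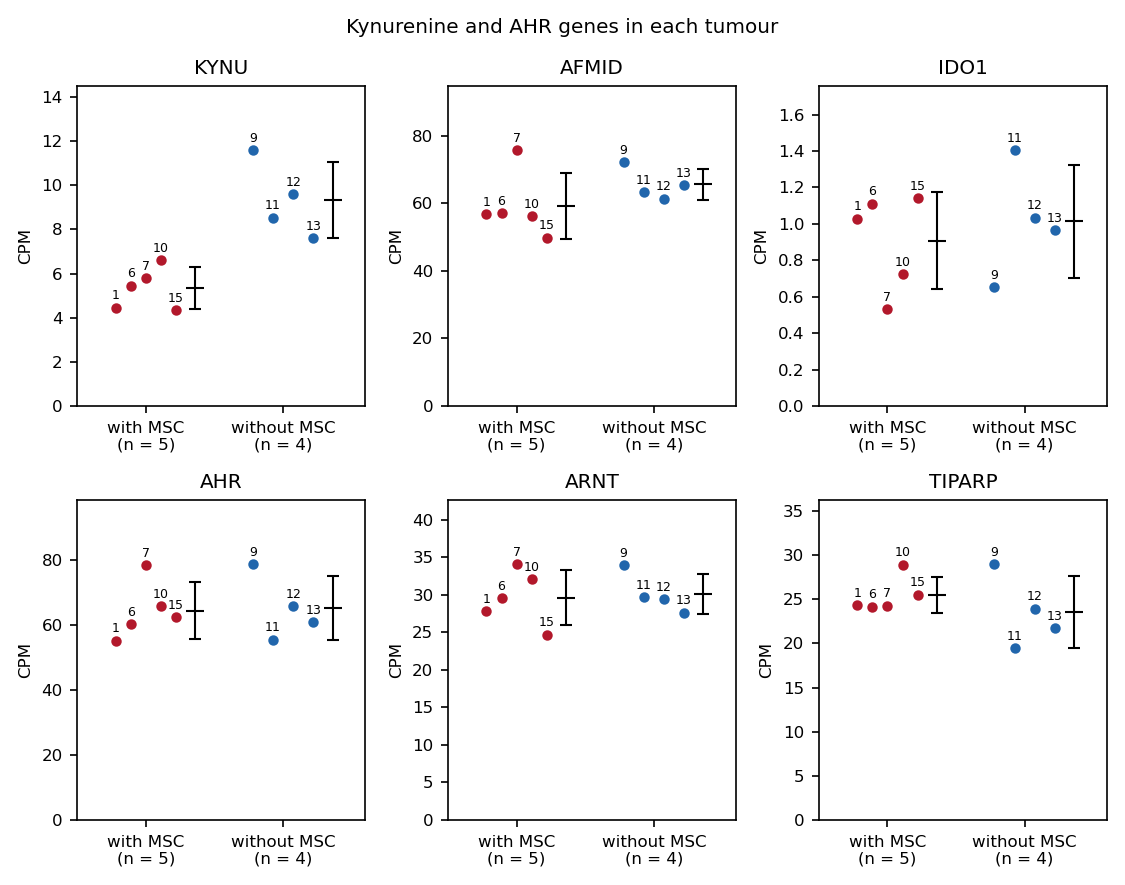
CPM of the 6 members that passed the filter on low counts (y axis, linear from 0) in each tumour, labelled by its number, with MSC (red) and without MSC (blue). Black bars are the group mean ± SD. The KYNU points do not overlap between the groups, with 4.34 to 6.61 CPM with MSC and 7.59 to 11.6 CPM without MSC, whereas the points of the other 5 genes do.

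The fitted KYNU difference moved with single libraries. Without tumour 9, the highest for this gene, the log2 fold change was -0.68 and no longer past the threshold, and the same held at -0.73 without tumours 15 and 12 together. Over the 9 fits that left out 1 library it lay between -0.90 and -0.68. Within the libraries with few single-count genes KYNU averaged 5.12 CPM in 2 tumours with MSC and 9.59 CPM in 3 without MSC. In the libraries with many it averaged 5.47 CPM in 3 tumours with MSC and was 8.53 CPM in the 1 without MSC. The log2 ratios of these means were -0.91 and -0.64, and neither set passed the threshold for KYNU on its own. With the library set as a term in the fit the log2 fold change was -0.81 ± 0.20.

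**Figure D2:**
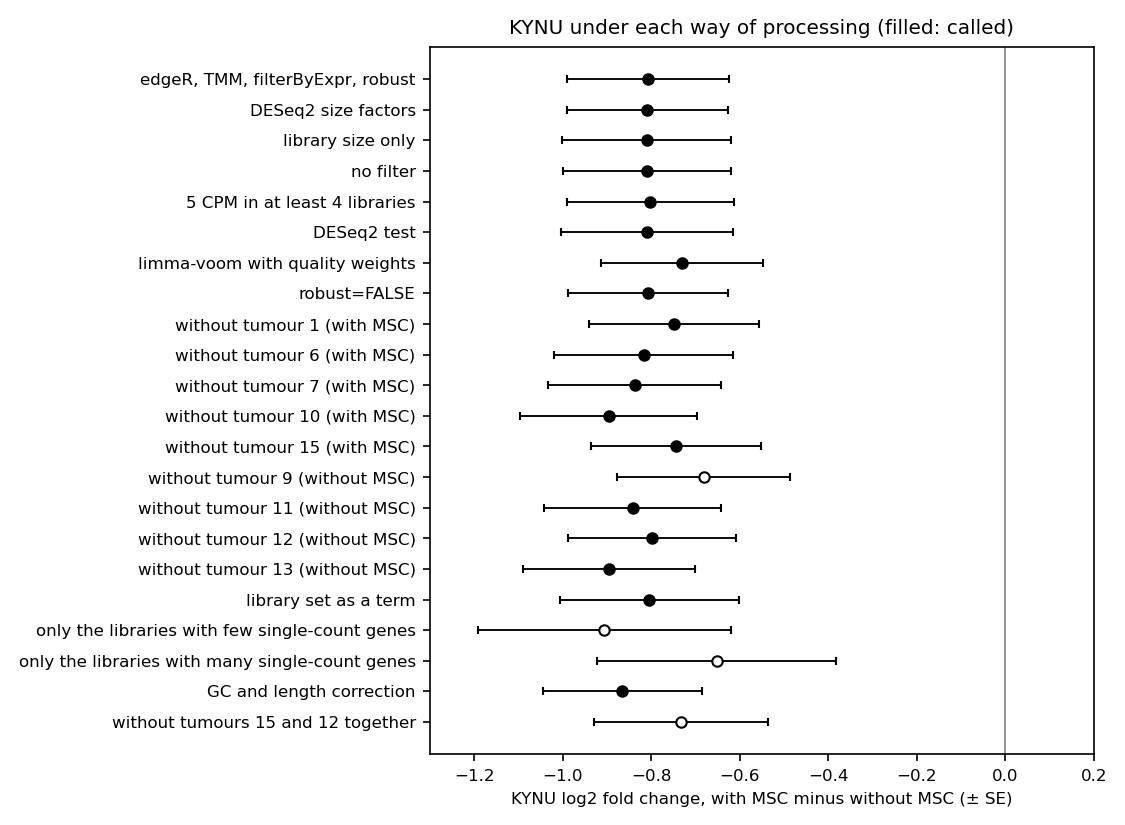
KYNU log2 fold change, with MSC minus without MSC, with its SE (x axis, linear) under each way of processing the counts (rows). Filled points passed an adjusted p of 0.05 over all tested genes and open points did not. The 22 estimates lie between -0.91 and -0.65 and 4 of them are open. The gene was chosen with this contrast known.

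KYNU is also expressed by macrophages, and the lysate held the whole tumour, so markers of other cell types are given beside it. The summed CPM of 10 fibroblast and MSC markers was 18.7 to 118.2 with MSC and 13.04 to 22.7 without MSC, with tumour 15 the highest, and 1 of the 5 tested was called higher with MSC. COL1A1 alone had 10.6 to 55.4 CPM with MSC and 8.72 to 15.5 CPM without MSC. DCN had 662 counts in tumour 15 and at most 5 in any other library, and COL3A1 744 and at most 77. Without tumour 15 the KYNU log2 fold change was -0.74. The summed CPM of 10 macrophage and leukocyte markers was 139.9 to 209.3 with MSC and 96.0 to 139.4 without MSC, most of it from CD68, a lysosomal protein that is not particular to leukocytes and was the 1 of 4 tested markers called, higher with MSC. The others of that list did not all lie on 1 side. PTPRC, the common leukocyte antigen, had 5 to 136 counts with MSC, highest in tumour 1, and 0 to 13 without MSC, whereas LYZ, the secreted lysozyme, had 0.564 to 1.66 CPM with MSC and 1.27 to 2.85 CPM without MSC. CD14, a monocyte receptor, had 6 to 22 counts with MSC and 6 to 29 without MSC, and TYROBP, an adaptor of myeloid cells, 3 counts in tumour 15 and 0 in the other 8 libraries. CSF1R had 3.52 to 6.47 CPM with MSC and 1.82 to 5.92 CPM without MSC, with overlap. FCER1G lay on the higher side, with 2 to 13 counts with MSC and 0 in every tumour without MSC. CD163, AIF1 and ITGAM had at most 9 counts in a library. The sum of 8 endothelial markers was 6.45 to 11.2 CPM with MSC and 8.99 to 12.4 CPM without MSC. PECAM1, an adhesion molecule of endothelium, was called lower, the side on which KYNU lay, with 3.77 to 6.04 CPM with MSC and 6.79 to 9.62 CPM without MSC, while TIE1, the other tested endothelial marker, had 2.19 to 5.11 CPM with MSC and 1.90 to 3.18 CPM without MSC. CDH5 and CLDN5, which define endothelium more closely, had at most 6 counts in a library. None of the fibroblast, leukocyte or endothelial markers was at 0 in all libraries, and the part of these cells in the KYNU difference was not tested. Whether reads of the mouse host were taken out before counting was not stated in the sources used.

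Of the enzymes that make kynurenine, AFMID had counts enough for a close estimate, IDO1 had few and TDO2 almost none. AFMID and IDO1 did not differ between the groups beyond the spread among tumours, and TDO2 was not tested. IDO1 had 1.03, 1.11, 0.532, 0.725 and 1.14 CPM in tumours 1, 6, 7, 10 and 15 with MSC, against 0.653, 1.41, 1.03 and 0.964 CPM in tumours 9, 11, 12 and 13 without MSC. The groups overlapped, and the log2 fold change of -0.16 ± 0.46 rests on 23 to 43 counts a library, which leaves a wide interval. TDO2, the other ring-opening enzyme and best known from liver, had 1 count in each of tumours 10 and 15 with MSC and 0 in tumours 1, 6 and 7, against 5 and 6 counts in tumours 9 and 11 without MSC and 0 in tumours 12 and 13. It did not pass the filter.

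AFMID had 56.7, 57.2, 75.8, 56.2 and 49.8 CPM in tumours 1, 6, 7, 10 and 15 with MSC, against 72.2, 63.4, 61.4 and 65.4 CPM in tumours 9, 11, 12 and 13 without MSC. Tumour 7 stood apart as the highest of all 9, and the other 4 tumours with MSC lay below all tumours without MSC. The means were 59.1 ± 9.79 CPM with MSC (SD, n = 5) and 65.6 ± 4.68 CPM without MSC (SD, n = 4), a log2 fold change of -0.15 ± 0.12, with overlapping groups. Without tumour 7 it was -0.26. Within the libraries with few single-count genes the log2 ratio of means was -0.0019, and within those with many it was -0.22.

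KMO, which competes with KYNU for kynurenine, had 3, 3 and 5 counts in tumours 6, 10 and 15 with MSC and 0 in tumours 1 and 7, against 6 and 1 counts in tumours 9 and 11 without MSC and 0 in tumours 12 and 13. Of its exon bases in GENCODE 29, 28.4% overlap OPN3 on the opposite strand, so even these counts are uncertain. At this depth a difference in KMO or TDO2 was not detectable. A count of 0 allows up to 3 counts, which is 0.0688 to 0.124 CPM in tumours 1, 7, 12 and 13, and this covers counting error only. Those 4 libraries, all from the set with few single-count genes, were at 0 for TDO2, KMO and CYP1A1 alike.

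AHR and ARNT differed between the groups by far less than among tumours of 1 group. AHR had 55.1, 60.1, 78.4, 65.7 and 62.4 CPM in tumours 1, 6, 7, 10 and 15 with MSC, against 78.7, 55.4, 65.7 and 60.8 CPM in tumours 9, 11, 12 and 13 without MSC. The highest tumour of each group, 7 and 9, had nearly the same value, and the log2 fold change was -0.02 ± 0.12. ARNT had 24.7 to 34.1 CPM with MSC and 27.6 to 33.9 CPM without MSC, and tumours 7 and 9 were again the highest. It averaged 29.6 ± 3.67 CPM with MSC (SD, n = 5) and 30.1 ± 2.67 CPM without MSC (SD, n = 4), a log2 fold change of -0.03 ± 0.12. The sign of both changed with the setting.

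Among the AHR targets, TIPARP could be measured in every tumour, while CYP1A1 and CYP1B1 had at most 18 counts in any library. TIPARP, an ADP-ribosyltransferase that limits AHR activity, had 24.3, 24.2, 24.3, 28.9 and 25.5 CPM in tumours 1, 6, 7, 10 and 15 with MSC, against 28.98, 19.5, 23.9 and 21.8 CPM in tumours 9, 11, 12 and 13 without MSC. The groups overlapped and the log2 fold change was 0.11 ± 0.13. It was -0.036 within the libraries with few single-count genes and 0.41 within those with many, where the 1 tumour without MSC was the lowest of the 9. TIPARP-AS1 on the opposite strand shares 0.733% of its exon bases.

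CYP1A1, a monooxygenase and the classical readout of AHR activity, had 1 and 2 counts in tumours 6 and 15 with MSC and 0 in tumours 1, 7 and 10, against 2 and 1 counts in tumours 9 and 11 without MSC and 0 in tumours 12 and 13. CYP1B1, its relative that is best known from tissues outside the liver, had 0, 2, 18, 8 and 7 counts in tumours 1, 6, 7, 10 and 15 with MSC, against 9, 4, 0 and 5 counts in tumours 9, 11, 12 and 13 without MSC. The mean was 0.170 ± 0.158 CPM with MSC (SD, n = 5) and 0.0956 ± 0.0644 CPM without MSC (SD, n = 4), a difference within the spread of the tumours. CYP1B1-AS1 overlaps 11.3% of its exon bases on the opposite strand.

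Lists of pathway genes outside the members were compared next, over all 9 tumours in the same fit. They were written with earlier results of these data known, and SLC7A5, SLC3A2 and PTGS2 had already been seen. Of 81 genes in 7 lists, each counted once, 54 were tested, of which 5 were called higher and 4 lower with MSC, 16.7% against 7.78% of all tested genes. SLC7A5, SLC3A2 and PTGS2 are among the 5 called higher, so nothing is read from this share. The median log2 fold change of the 54 was -0.10, against 0.01 for all tested genes. The count of lower genes was 1 or 2 without any single one of tumours 1, 6, 7, 10, 15, 9, 11 or 12, and 6 without tumour 13. The count of higher genes was 3 without tumour 1, 6, 7, 9 or 12. With the library set as a term 3 were higher and 2 lower.

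**Figure D3:**
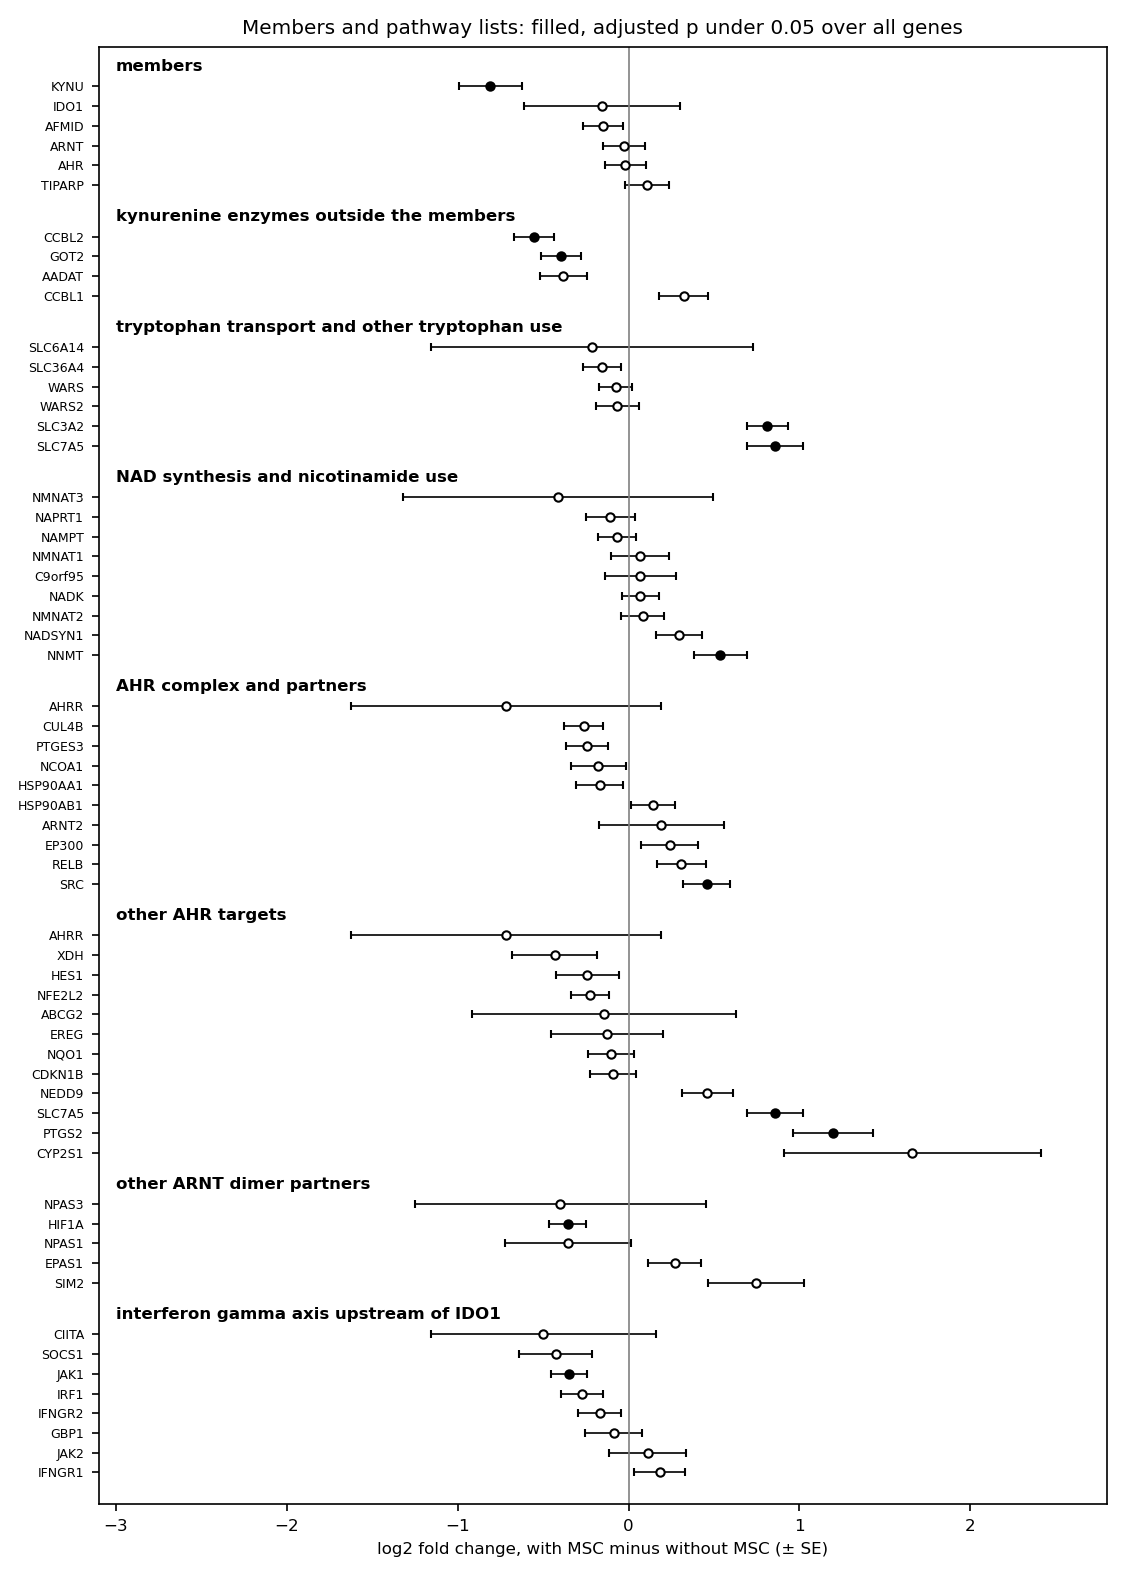
Log2 fold change, with MSC minus without MSC, with its SE (x axis, linear) for the 6 tested members and tested genes of the 7 pathway lists (rows, grouped by list; AHRR and SLC7A5 stand in 2 lists). Filled points had an edgeR adjusted p under 0.05 over all tested genes. KYNU, whose contrast was known when it was chosen, CCBL2 and GOT2 are filled on the lower side and SLC3A2, SLC7A5, NNMT, SRC and PTGS2 on the higher side, with HIF1A and JAK1 lower by less.

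The aminotransferases that turn kynurenine into kynurenic acid did not move as one. Of the 8 kynurenine enzymes outside the members 4 were tested, 2 fell and none rose (median log2 fold change -0.39). CCBL2, now named KYAT3, had 24.0, 25.0, 23.7, 25.7 and 21.5 CPM in tumours 1, 6, 7, 10 and 15 with MSC, against 37.2, 34.9, 38.8 and 29.7 CPM in tumours 9, 11, 12 and 13 without MSC. The groups did not overlap, and the fall of 0.55 ± 0.12 on the log2 scale had an edgeR adjusted p = 0.00853. It was called in all 9 fits that left out 1 library, though not without tumours 15 and 12 together (log2 fold change -0.47, edgeR adjusted p = 0.0548). In GENCODE 29, 20.3% of its exon bases are shared with RBMXL1 on the same strand, so its counts may be split or lost.

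GOT2, the mitochondrial aspartate aminotransferase that also acts on kynurenine, averaged 125.5 ± 10.8 CPM with MSC (SD, n = 5) and 165.0 ± 31.0 CPM without MSC (SD, n = 4). The groups overlapped, its log2 fold change was -0.39 ± 0.12 (edgeR adjusted p = 0.0454), and the call was lost without any single one of tumours 1, 7, 10, 15, 9, 11 or 12 (edgeR adjusted p up to 0.215). AADAT, the aminotransferase named kynurenine aminotransferase II, averaged 12.9 ± 1.42 CPM with MSC (SD, n = 5) and 16.8 ± 2.21 CPM without MSC (SD, n = 4). Its groups did not overlap, but its log2 fold change of -0.38 ± 0.14 was not called (edgeR adjusted p = 0.0952). CCBL1 (KYAT1) lay the other way, at 15.9 ± 2.14 CPM with MSC (SD, n = 5) and 12.7 ± 1.70 CPM without MSC (SD, n = 4), a log2 fold change of 0.32 ± 0.14 that was not called (edgeR adjusted p = 0.174). The last enzymes of the route to NAD were nearly absent. HAAO, which opens hydroxyanthranilic acid, had 4 counts over the 5 tumours with MSC and 16 over the 4 without MSC, and QPRT, which makes the first nucleotide of the route, had 6 with MSC and 0 without MSC. IDO2 and ACMSD had at most 3 counts in either group, and these 4 genes are named after their values were seen.

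**Figure D4:**
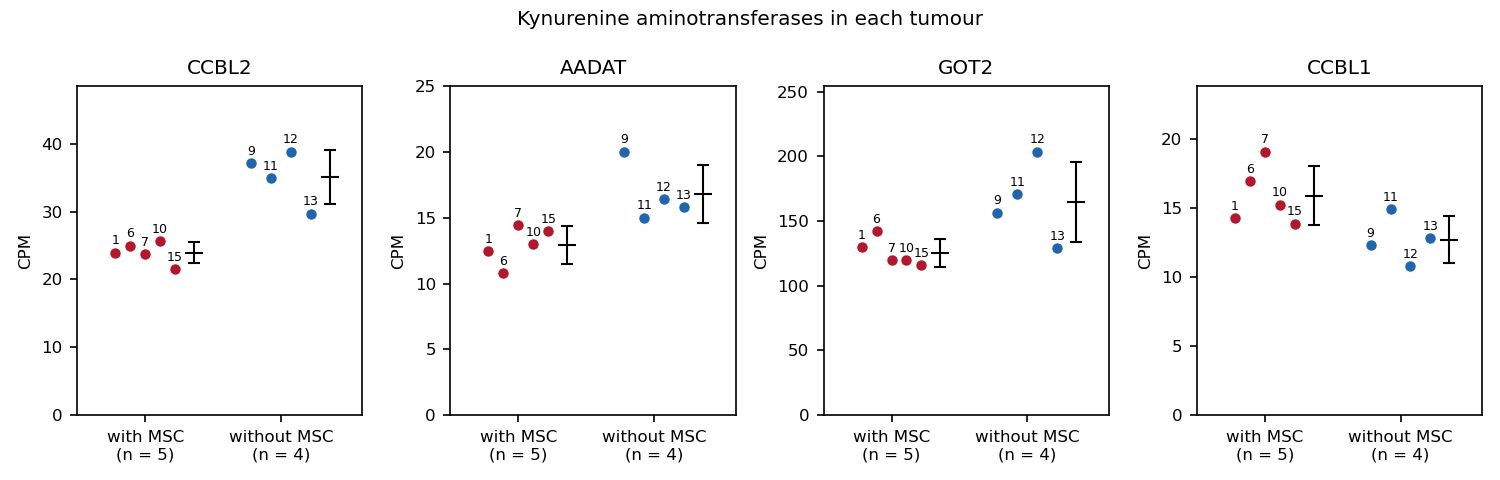
CPM of the 4 kynurenine aminotransferase genes (y axis, linear from 0) in each tumour, labelled by its number, with MSC (red) and without MSC (blue). Black bars are the group mean ± SD. CCBL2 has 21.5 to 25.7 CPM with MSC and 29.7 to 38.8 CPM without MSC, AADAT also does not overlap, and CCBL1 lies in the other direction with overlap.

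On the supply side, both chains of the transporter that carries tryptophan and other large neutral amino acids were higher with MSC. Of 14 genes of tryptophan transport and other tryptophan use 6 were tested, 2 rose and none fell (median log2 fold change -0.07). SLC7A5, the transporting chain, had 121.3, 119.4, 116.8, 111.4 and 172.9 CPM in tumours 1, 6, 7, 10 and 15 with MSC, against 53.6, 78.5, 56.5 and 95.3 CPM in tumours 9, 11, 12 and 13 without MSC. SLC3A2, its partner chain, had 107.9 to 124.5 CPM with MSC and 56.2 to 85.8 CPM without MSC. Neither gene's groups overlapped. For genes higher with MSC, here and below, the share of all tested genes without overlap is not given. Nothing is read from the lack of overlap in that direction. The log2 fold changes were 0.85 ± 0.16 for SLC7A5 (edgeR adjusted p = 0.00678) and 0.81 ± 0.12 for SLC3A2 (edgeR adjusted p = 0.00117), and both were called without any single library. The tryptophanyl-tRNA synthetase WARS, the main other user of tryptophan, had 127.0 ± 10.9 CPM with MSC (SD, n = 5) and 133.9 ± 7.22 CPM without MSC (SD, n = 4), with edgeR adjusted p = 0.679. The lysosomal and plasma membrane carrier SLC36A4 had a log2 fold change of -0.16 ± 0.11 (edgeR adjusted p = 0.415).

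Of 10 genes that make NAD or use up nicotinamide 9 were tested and 1 rose (median log2 fold change 0.07). That gene was NNMT, which methylates nicotinamide, with 68.1, 61.8, 60.2, 38.9 and 43.8 CPM in tumours 1, 6, 7, 10 and 15 with MSC, against 29.3, 43.5, 39.5 and 38.3 CPM in tumours 9, 11, 12 and 13 without MSC. Tumour 10 with MSC lay below tumours 11 and 12 without MSC, and the groups overlapped. The log2 fold change of 0.54 ± 0.16 (edgeR adjusted p = 0.0405) was no longer called without any single one of tumours 1, 6, 7, 9 or 12 (edgeR adjusted p up to 0.128), and was 0.84 within the libraries with few single-count genes and 0.15 within those with many, as log2 ratios of means. NADSYN1, which completes the route that QPRT feeds, had a log2 fold change of 0.30 ± 0.13 (edgeR adjusted p = 0.175), and NAPRT1, which starts the route from nicotinic acid, -0.11 ± 0.14 (edgeR adjusted p = 0.690).

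For the AHR complex and its partners, 11 of 11 genes were tested and 1 rose (median log2 fold change 0.05). SRC, a tyrosine kinase held in the cytosolic AHR complex, averaged 16.3 ± 1.31 CPM with MSC (SD, n = 5) and 11.8 ± 1.51 CPM without MSC (SD, n = 4), with no overlap. The difference was 0.46 ± 0.14 on the log2 scale (edgeR adjusted p = 0.0454), and the call held in 1 of the 9 fits without 1 library, that without tumour 13 (edgeR adjusted p up to 0.118 in the other 8). The ubiquitin ligase scaffold CUL4B had a log2 fold change of -0.26 ± 0.11 (edgeR adjusted p = 0.156) and the NF-kB subunit RELB 0.31 ± 0.14 (edgeR adjusted p = 0.187). AHRR, the AHR repressor and itself a target, had 0, 16, 0, 15 and 9 counts in tumours 1, 6, 7, 10 and 15 with MSC, against 11, 9, 13 and 21 counts in tumours 9, 11, 12 and 13 without MSC. Its log2 fold change of -0.72 ± 0.91 was not called, and the gene is named after its values were seen.

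Of 19 other AHR targets 12 were tested, 2 rose and none fell (median log2 fold change -0.11). Both are also induced through other pathways: SLC7A5, given above, and PTGS2, the inducible prostaglandin synthase. PTGS2 had 3.95, 5.88, 6.38, 8.02 and 4.65 CPM in tumours 1, 6, 7, 10 and 15 with MSC, against 2.39, 2.26, 3.06 and 2.43 CPM in tumours 9, 11, 12 and 13 without MSC, with no overlap and a log2 fold change of 1.197 ± 0.234 (edgeR adjusted p = 0.00632). NEDD9, an adhesion scaffold, had 38.9 ± 8.82 CPM with MSC (SD, n = 5) and 28.3 ± 2.52 CPM without MSC (SD, n = 4), with edgeR adjusted p = 0.0603. CYP2S1, another dioxin-inducible monooxygenase, had 1.19, 0.681, 0.116, 0.766 and 0.571 CPM in tumours 1, 6, 7, 10 and 15 with MSC, against 0.198, 0.229, 0 and 0.367 CPM in tumours 9, 11, 12 and 13 without MSC. Its log2 fold change of 1.66 ± 0.75 came with an edgeR adjusted p = 0.176.

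ARNT also pairs with other factors of the AHR family, and of 8 such partners 5 were tested, 1 fell and none rose (median log2 fold change -0.35). HIF1A, the oxygen-regulated subunit whose activity is set mainly at the protein, had 85.4 to 98.8 CPM with MSC and 101.5 to 140.9 CPM without MSC, with no overlap. The fall of 0.36 ± 0.11 on the log2 scale (edgeR adjusted p = 0.0454) was no longer called without any single one of tumours 1, 6, 7, 10, 9, 11 or 12 (edgeR adjusted p up to 0.164). SIM2 had 2.61 ± 0.434 CPM with MSC (SD, n = 5) and 1.55 ± 0.221 CPM without MSC (SD, n = 4), with no overlap but edgeR adjusted p = 0.103, and EPAS1, the relative of HIF1A also named HIF2A, had a log2 fold change of 0.27 ± 0.16 (edgeR adjusted p = 0.297).

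In the interferon gamma axis that controls IDO1, 9 of 13 genes were tested, 1 fell and none rose (median log2 fold change -0.27). JAK1, a kinase of the receptor, had 44.0 to 52.7 CPM with MSC and 54.7 to 66.0 CPM without MSC, with no overlap. The fall of 0.35 ± 0.10 on the log2 scale (edgeR adjusted p = 0.0451) was not called in 8 of 9 fits that left out a library, the exception being that without tumour 13 (edgeR adjusted p up to 0.132). IRF1, a direct activator of IDO1, had a log2 fold change of -0.27 ± 0.13 (edgeR adjusted p = 0.185). IFNG itself, named after its values were seen, had 0 counts in all 9 libraries.

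The genes whose levels followed KYNU most closely were looked for among 12613 tested genes whose mean count reached 20, by the Pearson correlation of log2 CPM over the 9 tumours. The closest was RAB38, a small GTPase of melanosome traffic, with r = 0.995, and r = 0.981 after the group means were taken off. Next were MEAF6, a subunit of histone acetyltransferase complexes (0.971, and 0.934 after the group means), UBE2E2, a ubiquitin-conjugating enzyme (0.970 and 0.911), CSNK1A1, casein kinase 1 alpha (0.968 and 0.891), and UHRF2, a ubiquitin ligase that reads modified DNA (0.967 and 0.856). These are descriptions of 9 points that share their libraries and their group difference, taken as the highest of many. No gene of the kynurenine or AHR lists was among the 5, which were ranked before the group means were taken off. The top 5 of 12613 genes would seldom hold any gene of such short lists, so nothing is read from this. Among the other tested members, ARNT had r = 0.521 with KYNU, and 0.874 after the group means, above the 0.856 of UHRF2, which was picked without that step. AHR had 0.384 and 0.702, TIPARP 0.0037 and 0.694, AFMID 0.594 and 0.462, and IDO1 -0.157 and -0.677. How many of the 12613 genes reach such values after the group means was not counted. These values describe the same 9 points, and their cause was not tested.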

How the data were processed

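For each of the 9 libraries the authors deposited raw counts, as whole numbers, for 21619 gene symbols. Per the submitters' processing notes, the authors used CASAVA 1.8.1, TopHat 1.4.0, HTSeq and the build hg19. The annotation, the HTSeq settings, the use of strand and any removal of mouse reads were not given in the sources used here, and reads of overlapping genes or close paralogs can be lost or misassigned. Reads assigned to no gene took 10.2 to 12.1% of a library's counts and were left out.

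Members and lists were chosen with earlier results of these data known. The fit used edgeR 4.0.16 under R 4.3.3 (filterByExpr, TMM factors, glmQLFit with robust=TRUE, Benjamini-Hochberg adjustment over all tested genes, threshold 0.05). CPM used TMM-scaled library sizes over all genes, and log2 CPM a prior count of 2. Each SE was taken as the absolute log2 fold change over the square root of the F statistic. No 2 libraries of a group agreed within sampling noise (smallest chi-square per degree of freedom 23.2). Genes named were the 10 members, called genes of the pathway lists, the 2 others of smallest p in each list, and the 5 genes most like KYNU. Cell type markers and a few more genes were named after their values were seen, and 2 list genes, 1 of them within this rule, count in the list totals but are not reported here. Exon overlaps, GC content and lengths came from GENCODE 29, and 88.3% of tested genes had a GC value and a length.

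Other settings tried were no TMM factors (library size only), size factors from DESeq2, no count filter, a stricter one (5 CPM or more in 4 libraries), the test of DESeq2 1.42.0, limma-voom 3.58.1 with quality weights, robust=FALSE, and leaving out each library. The library set as a term or on its own, the correction for GC content and length (splines with 4 degrees of freedom on each as offsets) and the fit without tumours 15 and 12 together were chosen after seeing the data. A library belonged to the set with few single-count genes when fewer than 300 genes had exactly 1 count.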

Additional observations from a re-analysis of the deposited data

Results flagged for a closer look

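In 3 of the 30 groups of tumours examined, for the 6 tested members and the 9 called list genes, 1 tumour lay far from the others by Dixon's test, which flags about 1 in 20 groups by chance. AFMID was 75.8 CPM in tumour 7 with MSC, and the next highest of the 5 tumours with MSC had 57.2 CPM. TIPARP was 28.9 CPM in tumour 10 with MSC, and the next highest had 25.5 CPM. SLC7A5 was 172.9 CPM in tumour 15 with MSC, and the next highest had 121.3 CPM.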

How the results depend on the processing

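No paired analysis was possible because the groups share no replicate numbers. The KYNU log2 fold change, a description since the gene was chosen with this contrast known, was not past the threshold without tumour 9 or, among the alternatives chosen after seeing the data, at -0.91 and -0.65 within the libraries with few and with many single-count genes and at -0.73 without tumours 15 and 12 together. In the fit of 3 tumours against 1, the lone tumour is assumed to vary like the others. The range without 1 library was -0.90 to -0.68 for KYNU, 0 to 1 for members called, 151 to 985 and 94 to 863 for all genes higher and lower, and 3 to 6 and 1 to 6 for list genes higher and lower. For all genes, DESeq2 called 856 higher and 790 lower, limma-voom 289 lower, the library set term 324 and 238, the few and many sets 13 and 2 and 13 and 5, the GC and length correction 360 higher, and the fit without tumours 15 and 12 201 and 101. For list genes, limma-voom called 3 higher and 1 lower, the library set term 3 and 2, and the fit without tumours 15 and 12 3 and 0. Lower list genes numbered 2 with library size only, with robust=FALSE and with the GC and length correction. Within either library set edgeR called 0 members and 0 list genes in either direction, with 1 member, 8 list genes higher and 5 lower at an unadjusted p under 0.05 in the few set and 1, 5 and 3 in the many set. The fit without tumours 15 and 12 called 0 members, with 1 at an unadjusted p under 0.05, and 5 list genes lower at that level. Signs turned in 4 members. AHR ranged from -0.099 to 0.086 without 1 library and was 0.00020 with limma-voom, 0.046 with the library set term and 0.16 in the many set. ARNT ranged from -0.081 to 0.037 without 1 library and was 0.00061 with the library set term, 0.029 in the few set and 0.018 without tumours 15 and 12. IDO1 ranged from -0.33 to 0.047 without 1 library and had no value under the 5 CPM filter, and TIPARP was -0.036 in the few set. The causes were not tested. Depth limits TDO2, KMO, CYP1A1 and CYP1B1, which had at most 18 counts in a library.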
